A study of Mus musculus with 8 samples.

Results

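Inhibitory interneurons of the hippocampus make GABA with the enzymes GAD67 and GAD65, encoded by Gad1 and Gad2, and load it into synaptic vesicles with the transporter VGAT, encoded by Slc32a1. They fall into classes named after what else they express. Somatostatin (Sst), neuropeptide Y (Npy) and vasoactive intestinal peptide (Vip) are secreted peptides, while parvalbumin (Pvalb) and calretinin (Calb2) are cytosolic calcium-binding proteins. Lhx6 is a LIM homeodomain transcription factor kept by interneurons born in the medial ganglionic eminence, the embryonic source of most somatostatin and parvalbumin cells, whereas vasoactive intestinal peptide cells come mainly from the caudal ganglionic eminence. These 9 genes, chosen by name as markers of interneuron identity and GABA synthesis, were followed among the 45706 genes of the count table, and all 9 passed the filter on low counts that left 14962 genes for testing.

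The libraries were bulk poly(A) RNA-seq of primary hippocampal neurons prepared from embryonic day 18 wild-type C57/Bl6 mice and grown for 12 to 14 days in vitro. A 4 h exposure to 1 µM of the hypothalamic peptide melanin-concentrating hormone (MCH) was compared with vehicle (H2O), with 4 wells for each treatment. All wells had received FUdR, an antimitotic that holds back dividing glia. The wells came from 2 cultures, each giving 2 of the wells of either treatment, so p-values measure the spread between these wells. Which replicate number came from which culture is not given. The sample labels state a wild-type genotype and also carry an Alzheimer's disease model tag, which is left as it stands. Each well yielded between 26083936 and 31844861 estimated counts.

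The replicate numbers did not stand for interchangeable wells. Over the tested genes, replicates 1 and 2 of both treatments lay on one side of the first principal component and replicates 3 and 4 on the other, and that component held 59.8% of the variance of deviations from the treatment means. As sums, the markers of 5 other cell classes moved with this split. Summed over the list, astrocyte markers reached 396 to 442 TPM (a level per unit of transcript length, scaled to the same total in every well) in replicates 1 and 2 and 1149 to 1351 in replicates 3 and 4, and all 8 that were tested were higher in the latter without overlap. Oligodendrocyte lineage markers reached 35.9 to 41.8 TPM against 93.1 to 113 (Sox10 and Mog were at 0 in every well), markers of dividing cells 36.1 to 39.1 against 67.6 to 77.1, fibroblast, vessel and meningeal markers 21.7 to 29.6 against 65.3 to 66.0, and microglial markers 26.3 to 30.7 against 32.9 to 43.0. Olig1, at 52.0 TPM on average, made up most of the oligodendrocyte lineage sum, while Mbp and Pdgfra overlapped between the sides. Of the tested genes, 4 of 6 oligodendrocyte lineage and 3 of 5 microglial markers were higher in replicates 3 and 4 without overlap. For dividing cells it was 8 of 9, and for fibroblasts, vessels and meninges 8 of 9, beside 16.6% of all tested genes. Pan-neuronal markers were 6661 to 6776 TPM in replicates 1 and 2 and 6261 to 6429 in replicates 3 and 4. The labels do not name this split, and it is described below without a test.

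Sst, Vip and Npy showed the contrast among the peptide genes on which the results turn, so the sequences just upstream of their start sites are printed here from RefSeq (build GRCm38.p6; positions count from the start site at +1, with −1 the base before it). The Sst gene is known for its cAMP response element (CRE), TGACGTCA, which lies at −48 to −41. The Vip stretch carries the shorter TGACG at −79 to −75, and a TATA box, TATAAA, at −30 to −25. The Npy stretch holds neither. Capitals mark the exact motif matches.
Sst, chr16:23890874-23890903 (− strand): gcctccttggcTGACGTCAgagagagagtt
Vip, chr10:5639098-5639217 (+ strand): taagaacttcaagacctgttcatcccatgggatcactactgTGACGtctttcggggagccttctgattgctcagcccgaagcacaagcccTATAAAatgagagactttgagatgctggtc
Npy, chr6:49822590-49822709 (+ strand): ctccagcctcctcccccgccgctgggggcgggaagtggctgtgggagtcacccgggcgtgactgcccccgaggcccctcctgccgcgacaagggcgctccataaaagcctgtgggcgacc

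Promoters of 250 bases before to 50 bases after the start were on hand for 8 of the 9 genes (11 start sites; Calb2 was not matched), and 4 motifs were searched on both strands. TGACGTCA was present in 1.79% of all 32851 promoters and among these genes in Sst. TGACG, which is contained in the longer motif, was present in 20.8% of promoters and here in Sst, Vip and Gad2. TATAAA was present in 13.6% of promoters and here in Vip (3 matches), Gad1 and the third start site of Lhx6. The homeodomain core TAATTA, in 5.29% of promoters, was in none of the 11. These matches describe letters and not binding.

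Somatostatin RNA was by far the most abundant of the 9 per unit length. Sst (ENSMUSG00000004366, chr16:23889573-23890958, − strand, GRCm38) averaged 2479 TPM, with wells from 1810 to 3025. Gad1 (ENSMUSG00000070880, chr2:70553072-70602014, + strand) averaged 704 TPM (590 to 817) and Npy (ENSMUSG00000029819, chr6:49822710-49829507, + strand) 598 TPM (334 to 900). Those neighbours in the order were not separated, since Gad1 exceeded Npy in 4 of 8 wells.

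Calb2 (ENSMUSG00000003657, chr8:110137502-110168210, − strand) stood at 196 TPM (179 to 212), Gad2 (ENSMUSG00000026787, chr2:22622205-22693874, + strand) at 164 (142 to 185) and Slc32a1 (ENSMUSG00000037771, chr2:158610767-158615748, + strand) at 139 (119 to 155). Each was above the next in all 8 wells, although their ranges overlapped. Lhx6 (ENSMUSG00000026890, chr2:36081953-36105408, − strand) averaged 47.0 TPM (38.8 to 57.6) and Vip (ENSMUSG00000019772, chr10:5639218-5647617, + strand) 34.8 (29.4 to 39.8), again with Lhx6 higher in all 8 wells and overlapping ranges. Pvalb (ENSMUSG00000005716, chr15:78191114-78206400, − strand), the marker of fast-spiking basket cells, was barely present at 1.15 TPM (0.978 to 1.61), resting on 12 to 18 estimated counts per well. Its level was above the floor of 3 counts in every well, yet no fine difference in it is measurable at this depth.

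Exposure to MCH for 4 hours left the 9 genes without a called change when replicate number was not in the model. In edgeR's quasi-likelihood test, 0 of the 9 passed a Benjamini-Hochberg adjusted p of 0.05 over all genes, against 0.234% of all tested genes (35 of 14962), and 1 of the 9 (Vip) had an unadjusted p under 0.05, against 8.5% of all genes. DESeq2 gave an adjusted p to 8 of the 9 (not to Pvalb) and called 0 of them, against 1.25% of the 12540 genes with an adjusted p, with 1 at an unadjusted p under 0.05, against 8.37%. Of the 9, 8 had a lower mean with MCH, and the median log2 fold change was −0.10, beside −0.00 over all tested genes. With the replicate number as a block, edgeR called 2 of the 9, Gad1 and Vip, both lower with MCH, against 2.25% of tested genes called lower and 3.98% called either way, and 5 of the 9 had an unadjusted p under 0.05, against 17.6%. A block for replicates 1 and 2 against 3 and 4 called the same 2, Gad1 and Vip (edgeR adjusted p = 0.0267 and 0.0225), against 2.61% of genes called lower. In bulk RNA, fewer interneurons and less RNA per interneuron cannot be told apart.

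**Figure D1:**
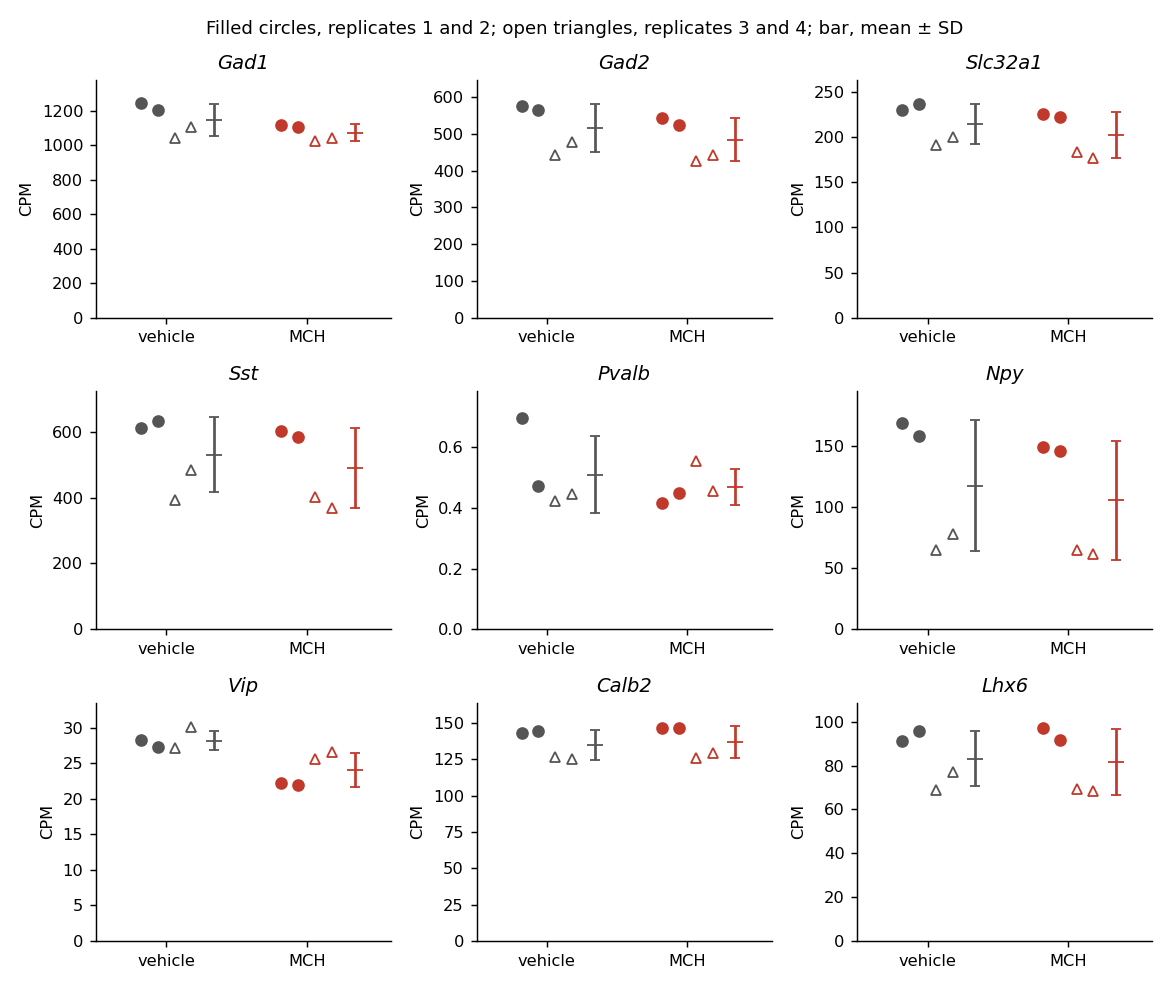
CPM (linear axes from 0) of the 9 genes in each of the 8 wells, vehicle in gray and MCH in red, with filled circles for replicates 1 and 2, open triangles for replicates 3 and 4, and the mean ± SD of each treatment (n = 4) as a bar. The circles of Npy lie between 146 and 169 CPM and its triangles between 61.4 and 77.6 under both treatments, while for Vip the red symbols all lie below the gray ones.

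Vip had the largest log2 fold change of the 9 over all 8 wells, although that of Npy was larger without vehicle replicate 3 or 4 or MCH replicate 1 or 2 (−0.35, −0.30, −0.37 and −0.35). Its levels, in counts scaled to library size (CPM), were 28.2, 27.3, 27.1 and 30.1 CPM in vehicle replicates 1 to 4 and 22.2, 22.0, 25.6 and 26.6 CPM in MCH replicates 1 to 4. The treatments did not overlap in CPM, which held for 6.03% of all tested genes and, among the 9, for Vip alone; in TPM the highest MCH well, at 35.9, reached past the lowest vehicle well, at 35.6. The mean was 28.2 ± 1.35 CPM in vehicle and 24.1 ± 2.38 with MCH (SD, n = 4 each), and the log2 fold change was −0.22 (SE 0.0738, adjusted p = 0.416 by edgeR). Blocked by replicate number it was −0.23 (95% interval −0.35 to −0.11, adjusted p = 0.0298 by edgeR). The difference was larger in replicates 1 and 2, at −0.33, than in replicates 3 and 4, at −0.13 on the log2 CPM scale, and that contrast was not tested.

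Gad1, the gene of the enzyme that makes most GABA in the cell body, fell slightly under the blocked model. It stood at 1243, 1203, 1041 and 1107 CPM in vehicle replicates 1 to 4 and at 1119, 1108, 1023 and 1040.4 with MCH. The treatments overlapped, but within each replicate number the MCH well was the lower. Treatment means were 1148 ± 91.9 and 1073 ± 47.9 CPM (SD, n = 4 each), a log2 fold change of −0.10 (SE 0.0595, adjusted p = 0.733 by edgeR) without the block and −0.10 (95% interval −0.15 to −0.04, adjusted p = 0.0349 by edgeR) with it. Without the block and with single wells left out, the Gad1 value ran from −0.05 (without vehicle replicate 1) to −0.14 (without vehicle replicate 3). Both blocked calls depended on which wells and tool were used: leaving out both wells of replicate 1, 2 or 4 gave edgeR adjusted p-values of 0.157, 0.275 and 0.216 for Gad1 and 0.135, 0.233 and 0.124 for Vip, and DESeq2 with the same block gave 0.0798 and 0.223. Without replicate 3, 3 of the 9 were called lower: Gad1, Vip and Npy. Over all genes that setting called 743, of which 283 were lower and 460 higher.

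Gad2 and Slc32a1, the other genes of GABA synthesis and vesicle loading, were lower with MCH in all 4 pairs of wells sharing a replicate number, without being called. Gad2 measured 575, 566, 442 and 478 CPM in vehicle replicates 1 to 4 and 543, 525, 427 and 443 with MCH. Gad2 was not lower when MCH replicate 4 (443 CPM) was set against vehicle replicate 3 (442 CPM). Its blocked log2 fold change was −0.09 (95% interval −0.14 to −0.04, edgeR adjusted p = 0.0622). Slc32a1 measured 230.3, 236, 191 and 199.9 CPM in vehicle and 226, 222, 184 and 176 with MCH, with a blocked log2 fold change of −0.09 (95% interval −0.15 to −0.02, edgeR adjusted p = 0.137).

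The peptide genes Sst and Npy varied far more between replicate numbers than between treatments. For Sst the vehicle wells were at 611, 633, 391 and 485 CPM and the MCH wells at 603, 585, 401 and 367, with a log2 fold change of −0.12 (95% interval −0.62 to 0.39, edgeR adjusted p = 0.985). For Npy the vehicle wells were at 169, 158, 65.1 and 77.6 CPM and the MCH wells at 149, 146, 65.2 and 61.4. Its log2 fold change of −0.16 had a 95% interval of −1.23 to 0.91 without the block (edgeR adjusted p = 0.998) and of −0.25 to −0.06 with it (edgeR adjusted p = 0.0670).

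The calcium-binding protein genes and Lhx6 showed no called difference in either model. Calb2, the only one of the 9 with a higher mean under MCH, was at 143, 145, 127 and 125 CPM in vehicle and 146, 146, 126 and 129 with MCH, a blocked log2 fold change of 0.02 (95% interval −0.04 to 0.09). Lhx6 was at 91.3, 95.8, 68.8 and 77.1 CPM in vehicle and 97.2, 91.7, 69.2 and 68.2 with MCH, a blocked log2 fold change of −0.03 (95% interval −0.12 to 0.05). Pvalb, between 0.415 and 0.697 CPM, had a blocked interval from −0.81 to 0.59 on the log2 scale.

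**Figure D2:**
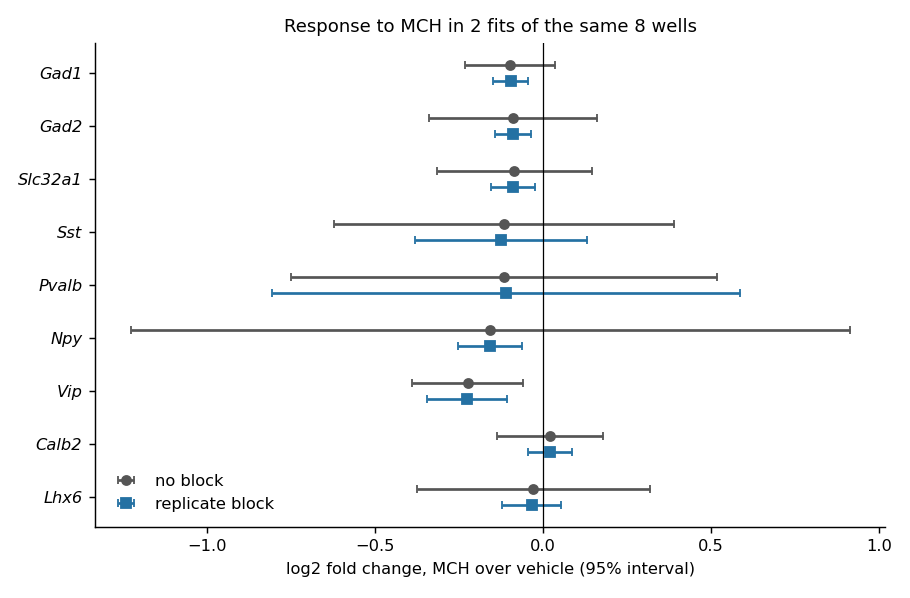
Log2 fold change of MCH over vehicle with its 95% interval for the 9 genes, from the edgeR model of the 8 wells without a block (gray circles) and with the replicate number as a block (blue squares). The Npy interval runs from −1.23 to 0.91 without the block and from −0.25 to −0.06 with it, while the point estimates hardly move.

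The split by replicate number differed in size among the 9 genes. Of these, 7 did not overlap between replicates 1 and 2 and replicates 3 and 4, and all 7 were lower in replicates 3 and 4, beside 29.6% of tested genes apart in either direction, 13.0% lower and 16.6% higher in replicates 3 and 4. The median log2 difference of the 9 (replicates 3 and 4 minus replicates 1 and 2) was −0.28, against −0.01 over all tested genes. The sums of the non-neuronal markers given above were higher in the same wells, and their part in the lower interneuron values was not tested.

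Npy stood out. It averaged 155 ± 10.4 CPM in replicates 1 and 2 and 67.3 ± 7.06 CPM in replicates 3 and 4 (SD, n = 4 wells each, both treatments together), 2.31-fold apart. Its log2 difference of −1.21 (SE 0.0461) was the 21st lowest among 14962 genes, and 0.301% of tested genes were at least 2-fold lower in replicates 3 and 4. The difference was −1.20 in vehicle wells and −1.22 in MCH wells.

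Sst and Lhx6 followed. Sst averaged 608 ± 19.98 CPM in replicates 1 and 2 and 411 ± 51.0 CPM in replicates 3 and 4, a log2 difference of −0.57, as low as or lower than which stood 1.34% of tested genes. Lhx6 averaged 94.0 ± 2.97 and 70.8 ± 4.17 CPM, a log2 difference of −0.41 (2.74% of tested genes as low or lower).

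The GABA genes moved less. Gad2 averaged 552 ± 22.8 and 447 ± 21.7 CPM (log2 difference −0.30, 4.97% of tested genes as low or lower) and Slc32a1 229 ± 6.13 and 188 ± 10.04 CPM (log2 difference −0.28, 5.63%). Calb2 averaged 145 ± 1.52 and 127 ± 1.93 CPM (log2 difference −0.20, 10.4%). Gad1 averaged 1168 ± 65.6 and 1053 ± 36.9 CPM, a log2 difference of −0.15, and its groups were parted by the narrow gap between 1107 and 1108 CPM.

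Vip and Pvalb overlapped between the replicate numbers. Vip averaged 24.9 ± 3.29 CPM in replicates 1 and 2 and 27.4 ± 1.90 CPM in replicates 3 and 4, with a log2 difference of 0.14, the only positive value among the 9. That difference was 0.04 in vehicle wells, where the replicate numbers overlapped, and 0.24 in MCH wells. Pvalb averaged 0.508 ± 0.128 and 0.470 ± 0.0576 CPM.

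**Figure D3:**
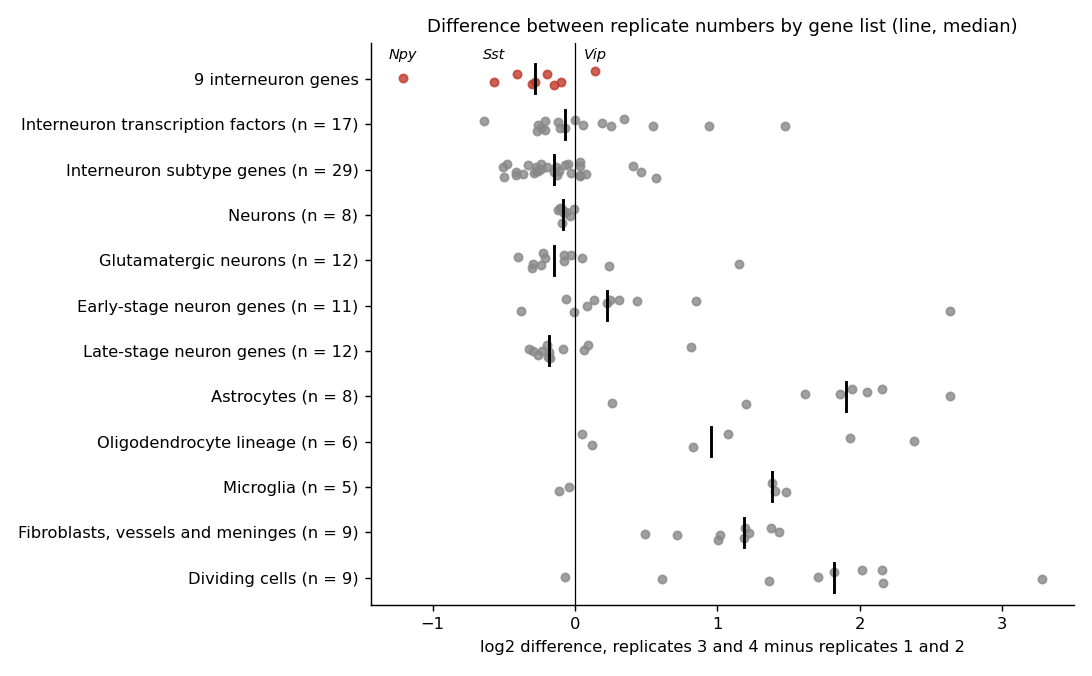
Log2 difference between replicates 3 and 4 and replicates 1 and 2 (one point per tested gene, vertical line at the list's median) for the 9 interneuron genes in red and other gene lists in gray. The 9 genes have a median of −0.28 with Npy at −1.21 and Vip at 0.14, whereas the astrocyte list has a median of 1.90 and the dividing-cell list of 1.82.

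Because total scaling cancels in a ratio taken within a well, the members were also set against Gad1 by estimated reads. Npy had 0.131 to 0.136 reads per Gad1 read in replicates 1 and 2 and 0.0591 to 0.0701 in replicates 3 and 4. Sst had 0.491 to 0.539 and 0.353 to 0.438, and Gad2 had 0.462 to 0.485 and 0.417 to 0.432. Vip ran the other way, with 0.0198 to 0.0227 reads per Gad1 read in replicates 1 and 2 and 0.0251 to 0.0272 in replicates 3 and 4. Within the 9 genes the proportions therefore differed between replicate numbers, with Npy changing relative to Sst too: there were 3.62 to 4.05 Sst reads per Npy read in replicates 1 and 2 and 5.98 to 6.25 in replicates 3 and 4. Sst relative to Lhx6 overlapped, at 6.20 to 6.69 and 5.39 to 6.29 reads per read. Of the 12 ratios, Calb2 to Gad1 alone parted the treatments, at 0.113 to 0.122 in vehicle and 0.123 to 0.132 with MCH. The gap was narrow, between 0.1218 and 0.1229, and the 12 include Gad1 to Gad2 and its inverse. Among single genes, 6.03% of those tested did not overlap between treatments in CPM, and the share among ratios of other genes was not computed.

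**Figure D4:**
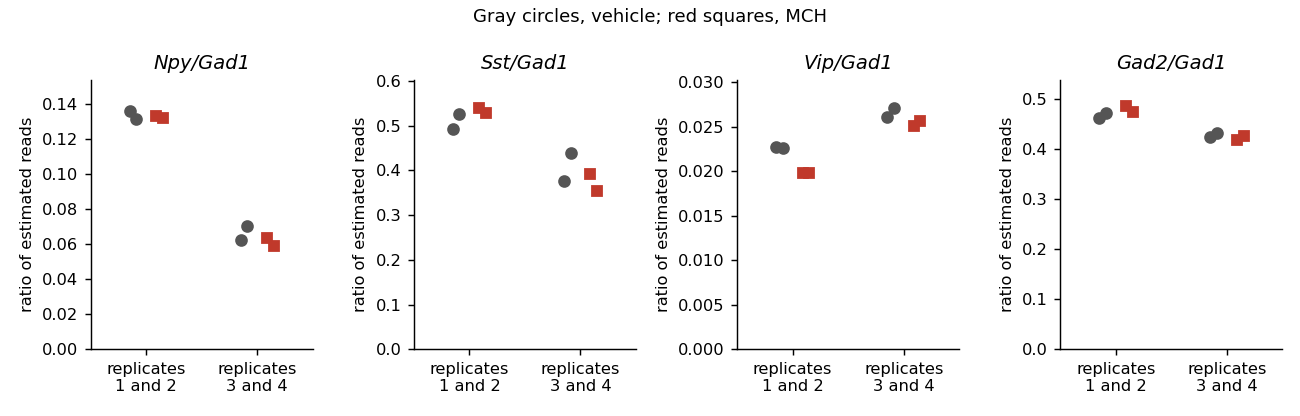
Estimated reads of Npy, Sst, Vip and Gad2 per estimated read of Gad1 within each well (linear axes from 0), vehicle as gray circles and MCH as red squares, by replicate number. Npy reads per Gad1 read lie at 0.131 to 0.136 in replicates 1 and 2 and at 0.0591 to 0.0701 in replicates 3 and 4, and Vip is the ratio that is higher in replicates 3 and 4.

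The list of other GABA handling genes took in neuronal and astrocytic steps. Of 11 tested genes for uptake, breakdown and precursor supply, none was called without the block and 1 with it, Slc6a11, a GABA transporter found largely on astrocytes, which was at 96.3 ± 18.4 CPM in vehicle and 107 ± 14.3 with MCH (SD, n = 4; blocked log2 fold change 0.16, edgeR adjusted p = 0.0239). Under the block, 1.73% of all tested genes were called higher. Between replicate numbers, 2 of the 11 were lower and 2 higher in replicates 3 and 4 without overlap, beside 13.0% and 16.6% of all tested genes. Glutamine synthetase (Glul), another astrocyte gene, was the highest of the list at a log2 difference of 1.39, and the glutamine transporter gene Slc38a1 the lowest at −0.23.

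Transcription factors of the interneuron lineage differed in both directions between replicate numbers. Of 17 tested, 8 were apart, 4 lower and 4 higher in replicates 3 and 4, beside 13.0% and 16.6% of all tested genes, and the median log2 difference was −0.07. Npas1 was the lowest at −0.64 and Nkx2-1, which specifies the medial ganglionic eminence, the highest at 1.47 on only 11 to 63 counts per well. Sox6, which acts downstream of Lhx6 in the same lineage, was also higher in replicates 3 and 4, at 0.94. Which cells carried the factors of this list cannot be told from bulk RNA. With MCH, none was called without the block and 1 with it, Zeb2 (blocked log2 fold change 0.31, edgeR adjusted p = 0.0106). The block called 1.73% of all tested genes higher and 3.98% either way.

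Genes of interneuron subtypes outside the 9 were lower in replicates 3 and 4 more often than higher. Of 29 tested, 10 were lower and 1 higher in replicates 3 and 4 without overlap, beside 13.0% and 16.6% of all tested genes, with a median of −0.15. The lowest was Sncg at −0.51, on 2 to 15 counts, followed by the serotonin receptor gene Htr3a, a marker of caudal ganglionic eminence interneurons, at −0.50. Calb1 was the exception at 0.46, and the highest, Chodl, at 0.57, overlapped. Bulk RNA does not show which cells carried Calb1, which granule and pyramidal cells also express, or any other gene of this list. With MCH, none of the 29 was called without the block and 2 were lower with it, against 2.25% of all tested genes called lower. These were the enkephalin precursor gene Penk (blocked log2 fold change −0.23, edgeR adjusted p = 0.0289) and the parathyroid hormone-like peptide gene Pthlh (−0.41, edgeR adjusted p = 4.6e-05).

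Receptors for the peptides of the 9 were tested as a further list. Of 10 tested, none was called for MCH without the block, and with it the somatostatin receptor gene Sstr2 was lower (84.9 ± 14.9 CPM in vehicle, 72.2 ± 19.2 with MCH, SD, n = 4; blocked log2 fold change −0.25, edgeR adjusted p = 0.00889) and the NPY receptor gene Npy2r higher (3.03 ± 0.585 and 4.45 ± 0.663 CPM; 0.56, edgeR adjusted p = 0.0368). Under the block, 2.25% of all tested genes were called lower and 1.73% higher. Between replicate numbers, 1 of the 10 (Sstr2) was lower and 3 were higher in replicates 3 and 4 without overlap. The shares of all tested genes were 13.0% and 16.6%. Sstr2 was the lowest of the list, at a log2 difference of −0.55, in the same direction as Sst. Another somatostatin receptor gene, Sstr1, went the other way without overlap, at 0.28. The VIP receptor gene Vipr2 was the highest at 0.48, with overlap, on 18 to 49 counts per well.

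Markers of glutamatergic neurons, the main cell class of such cultures, gave a point of comparison. Summed over 12 genes they reached 2259 to 2552 TPM in replicates 1 and 2 and 2046 to 2173 in replicates 3 and 4, with a median log2 difference of −0.15. The vesicular glutamate transporter gene Slc17a7 differed by −0.29, close to the −0.28 of its GABA counterpart Slc32a1, and Neurod6, the lowest, by −0.40. With MCH, against 1.73% of all tested genes called higher under the block, 3 of the 12 were called higher (Neurod2, Tbr1 and Bhlhe22, at blocked log2 fold changes of 0.24, 0.25 and 0.24) and none without it, while none of the 8 pan-neuronal markers was called in either model. The pan-neuronal markers spanned −0.07 (Tubb3) to 0.06 (Map2) for MCH and −0.12 (Syp) to −0.01 (Rbfox3) between replicate numbers. Late-stage neuron genes had a median of −0.19 between replicate numbers (7 of 12 lower without overlap, 1 higher, from Kcna1 at −0.32 to Syt2 at 0.81) and early-stage neuron genes a median of 0.22 (6 of 11 higher, none lower, from Nhlh2 at −0.38 to Igfbpl1 at 2.63), beside 13.0% of all tested genes lower and 16.6% higher without overlap. Cajal-Retzius markers, 4 of which were tested, had a median of 0.12, from Reln at −0.33 to Trp73 at 0.50. With MCH, the block added 1 higher call in each of the astrocyte (Slc1a2, 0.15), early-stage (Dcx, 0.18) and late-stage (Kcna2, 0.22) lists.

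The genes most like Gad2 and Sst over the 8 wells were found by Pearson's r of log2 CPM among 10909 genes of at least 5 CPM. For Gad2 they were Sv2a (r = 0.994), Vsnl1 (0.993) and Creb3 (0.992), and for Sst they were Plcxd1 (0.989), Tmeff1 (0.989) and Copb2 (0.987). Such values were common: 767 genes reached 0.9 with Gad2 and 652 with Sst, and all 8 wells share the split by replicate number.

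The transcript tables held 26 annotated isoforms of the 9 genes, of which 17 were tested. None was called for MCH with or without the block (background 0.0% of 33527 transcripts), and 1, Vip-201, had an unadjusted p under 0.05 in edgeR, against 4.4% of tested transcripts. Sst, Npy, Vip, Calb2 and Slc32a1 each have a single annotated isoform. Gad1 was carried by Gad1-201 at 563 TPM on average, 68.5 to 90.8% of the gene's TPM by well. Gad1-204, at 86.4 TPM, went from 0 to 126 TPM between wells on at most 332 estimated reads, and Gad1-206, at 40.6 TPM, from 0 to 117, so that Gad1 values in TPM carry an uncertain share of short or overlapping isoforms. Gad1-202 and Gad1-205 were at 10.7 and 2.69 TPM. Gad2-201 made up 91.0 to 97.3% of Gad2, with Gad2-202 at 10.6 TPM. Lhx6 was divided between Lhx6-204 (23.8 TPM), Lhx6-205 (11.5) and Lhx6-202 (10.9), and the share of Lhx6-204 ranged from 39.4 to 62.1% by well.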

How the data were processed

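RNA from 8 wells (4 vehicle, 4 MCH; groups and replicate numbers from the sample labels) was sequenced by the authors as stranded poly(A) libraries and quantified with Salmon on GRCm38; the Salmon and annotation versions are not given in the sources used here. The authors deposited estimated counts per gene, and per transcript estimated counts and TPM. The submitters' processing notes also name R 4.0.3 and DESeq2 1.13.0. Of the gene values, 9.13% were not whole; counts were rounded before testing. Symbols came from GENCODE identifiers.

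Gene and transcript counts were tested with edgeR 4.0.16 in R 4.3.3 (limma 3.58.1; TMM factors, filterByExpr by treatment, robust quasi-likelihood test, Benjamini-Hochberg adjustment over all features, threshold 0.05), without a block as in the study's methods. CPM used the TMM library sizes; gene TPM is the sum over transcripts. DESeq2 1.42.0 and the other settings were alternatives. Simulated data with 198 of 14771 genes changed by 1 on the log2 scale gave 145 found and 0 false calls without the block, and 184 found and 19 false calls with it. That change was larger than the blocked −0.10 of Gad1 and −0.23 of Vip, so detection at their size was not measured. The 19 false calls came from the replicate-block fit, which also gave the calls of Gad1 and Vip.

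Paired wells were checked by correlating deviations from the treatment means. Wells sharing a number correlated at 0.445 to 0.545, and wells of another number on the same side at 0.475 to 0.521. Wells of opposite sides correlated at −0.548 to −0.438. Within a side, a shared number gave no clearly higher correlation, so the check cannot single out pairing by number. All 4 same-numbered pairs exceeded 0.1, the rule for printing values with the replicate block where they change a call. No libraries agreed within sampling noise.

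The 9 genes and the gene lists were chosen with earlier results of these data known. Named were the 9 genes; of each list, every gene called in either model, otherwise those with the lowest and highest fold change, and those with the lowest and highest difference between replicate numbers (lists of other cell classes are given as sums; some list genes are not reported here); for likeness the 3 genes with the highest r; and transcripts of the 9 at 1 TPM or more. Sox6, Htr3a, Calb1, Sstr1 and Slc17a7 were added after their values were seen. Intervals of fold changes are from edgeR.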

Additional observations from a re-analysis of the deposited data

How the results depend on the processing

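With 4 wells per treatment, the unblocked 95% intervals of the 9 genes reached −1.23 and 0.91 on the log2 scale, both for Npy, so moderate changes were not detectable for it. The count of genes called for MCH, 35 without a block, was 596 with the replicate block, 668 with a block for replicates 1 and 2 against 3 and 4, 157 with DESeq2 and 7 with a transcript length offset, and 4 to 29 with single wells left out (lowest without vehicle replicate 4). Alternatives chosen after seeing the data gave 247 (replicate block, DESeq2) and, with the replicate block, 446, 146, 743 and 183 without replicate 1, 2, 3 and 4. Of the 9 genes, 2 were called with either block, 0 with each single well left out, and 3 with the replicate block without replicate 3 (0 without replicate 1, 2 or 4, and 0 in DESeq2 with the block). The cause was not tested. The block changed no other call among the 9. The count of 7 genes apart between replicate numbers held with RLE factors, without the filter, in TPM and with each well left out.

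The log2 fold changes of Gad1 and Vip were below 0 under every alternative run. With single wells left out, Gad1 ran from −0.138 to −0.052, Gad2 from −0.151 to −0.025, Slc32a1 from −0.140 to −0.019 and Vip from −0.269 to −0.178. Uncalled values changed sign when single wells were left out, where Sst ran from −0.23 to 0.007, Pvalb from −0.20 to 0.075, Npy from −0.37 to 0.079, Calb2 from −0.009 to 0.068 and Lhx6 from −0.12 to 0.056. With the replicate block and without replicate 1, Pvalb was 0.12, and without replicate 4, Lhx6 was 0.019.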
